A study of Mus musculus with 9 samples.

Results

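The genes described here are effectors of the interferon response that act outside its better known families, measured in SCCVII, a mouse line of squamous carcinoma cells from a tumour that arose in the mouth of CH3 mice. They were chosen as a list of 36 gene symbols, of which 34 had an Affymetrix probe set annotated to that gene alone, out of 18194 genes measured in this way. Ifi44 and Parp10 had none and were not analysed here. Where a gene had several probe sets, the brightest one, by its mean over the 9 arrays, was read.

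There were 3 groups with 3 arrays each, all of SCCVII cells. PA was the parental line, kept in ordinary culture. The NIR cells came out of tumours grown from PA cells in stroma without irradiation, and IR from tumours that PA cells formed in stroma irradiated beforehand. The labels call the IR tumours hypoxic, invasive and metastatic and say that IR cells stayed invasive in normoxic culture, and call NIR poorly invasive. The dose of irradiation, the number of tumours behind a group and whether a line was cloned or pooled are not given in the sources used here. The design text calls the 9 samples independent but does not say how far the 3 of a group share a tumour or a dish. The p-values therefore measure only the spread between these samples, which may be technical.

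Interferons bound to their receptors activate Janus kinases and STAT proteins, which together with IRF9 bind the interferon-stimulated response element in the promoters of target genes. The products of these genes limit viruses by many routes: they trap particles, block membrane fusion, make defective nucleotides, tag proteins with ubiquitin or ADP-ribose, and bind or edit RNA. Tumour lines often keep a part of this programme on without infection.

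Expression is given as RMA values in log2 units, so that a difference of 1 is a 2-fold change. Array medians ran from 4.45 to 4.52, and the median probe set, at 4.49, is used here as a mark of weak signal. Of 10 epithelial and squamous markers, Krt8 (mean 12.72) and Krt18 (11.58) were bright, Sfn (6.45), Epcam (6.05), Jup (5.75) and Krt5 (4.93) lay above the median probe set, and Krt14 (3.87), Trp63 (4.26), Cdh1 (3.29) and Dsp (3.29) lay below it. The bright genes of this list were Krt8 and Krt18, whereas Krt14 and Trp63 lay below the median probe set. The list thus did not settle the labelled squamous identity. Krt18 was higher in IR than in PA (0.55, limma adjusted p = 0.0146) and than in NIR (0.57, limma adjusted p = 0.018). The mean of 9 fibroblast markers was 7.06 to 7.21 in PA, 7.25 to 7.64 in NIR and 7.43 to 7.53 in IR, with Col3a1 (mean 11.48), Col1a2 (11.38) and Pdgfra (9.21) bright in all groups and Thy1 (3.73) and Fap (3.51) below the median probe set. Among them Dcn rose in IR (1.24, limma adjusted p = 0.00265) and in NIR (0.81, limma adjusted p = 0.0391), and Lum rose in NIR (1.29, limma adjusted p = 0.0241), while the effectors fell in the same groups. The part of these stromal markers in the effectors' values was not tested. The 12-gene macrophage list mean was 4.58 to 4.71 in PA, 4.82 to 4.93 in NIR, 4.83 in IR1, 4.87 in IR2 and 5.31 in IR3, of which Adgre1 (mean 3.86), Itgam (3.66), Ptprc (3.64), C1qa (4.33) and C1qb (3.42) lay below the median probe set and Cd14 (7.41), Lyz2 (5.75), Csf1r (5.65), Fcer1g (5.65), Mrc1 (5.06), Cd68 (4.90) and Tyrobp (4.75) above it. Mrc1 rose in NIR (0.75, limma adjusted p = 0.0156). Lyz2 reached 8.25 in IR3, against 4.63 to 5.02 in PA, and did not pass in IR (1.72, limma adjusted p = 0.251). Lists of endothelial and lymphocyte markers held no gene that passed in any comparison.

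Most of the effectors were lower in both tumour-derived groups than in the parental cells. In IR, 25 of the 34 fell against PA, 0 rose and 9 did not pass (limma, Benjamini-Hochberg adjusted p below 0.05 over all genes), where 0.758% of all genes were called lower and 0.297% higher. In NIR, 28 of 34 fell, 0 rose and 6 did not pass, beside 0.918% of all genes called lower and 0.379% higher. Of the members, 24 fell in both, Samhd1 passed only for IR, Dtx3l, Ifi47, Mov10 and Pml passed only for NIR, and Ifitm1, Ifitm2, Trim34a, Daxx and Znfx1 passed in neither. The difference between the derived groups was itself tested, and no member passed there. Both comparisons share the PA arrays.

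The members' median log2 difference was -0.93 in IR and -1.13 in NIR, against 0.004 and 0.005 over all genes. At least 2-fold falls were called for 14 members in IR (0.28% of all genes) and 20 in NIR (0.363%). The fallen members were 18.1% of all 138 genes called lower in IR, and 16.8% of the 167 called lower in NIR. All 3 IR arrays lay below all 3 PA arrays for 31 of 34 members (7.43% of all genes), and the same count held for NIR (7.73%), where Ifitm1 alone lay wholly above PA (7.82% of all genes). The mean over the 34 genes was 8.39 ± 0.0091 in PA, 7.37 ± 0.20 in NIR and 7.53 ± 0.074 in IR (log2, SD, n = 3 each). In bulk RNA of a culture, fewer cells that express a gene and less RNA per cell cannot be told apart. Without IR3, 21 members were called lower in IR than in PA, where 1.02% of all genes were called in either direction. The members' median was then -0.88. The part of macrophage markers in the fall was not tested.

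**Figure D1:**
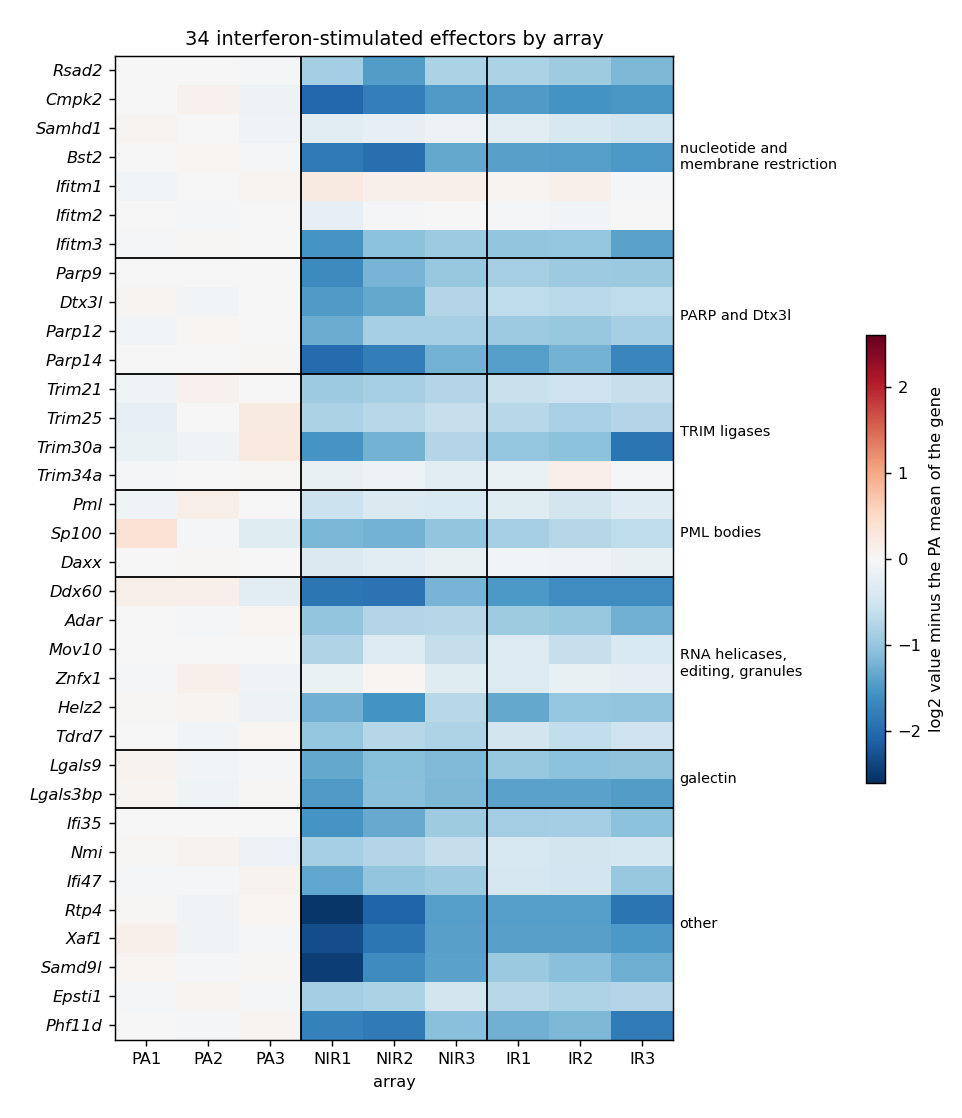
Each cell is the log2 RMA value of 1 gene on 1 array minus that gene's PA mean, with genes in rows grouped by role and the 9 arrays in columns. Blue covers nearly all rows of the 6 NIR and IR arrays, whereas Ifitm1, Ifitm2, Trim34a, Daxx and Znfx1 stay pale, and NIR1 holds the darkest cells.

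**Figure D2:**
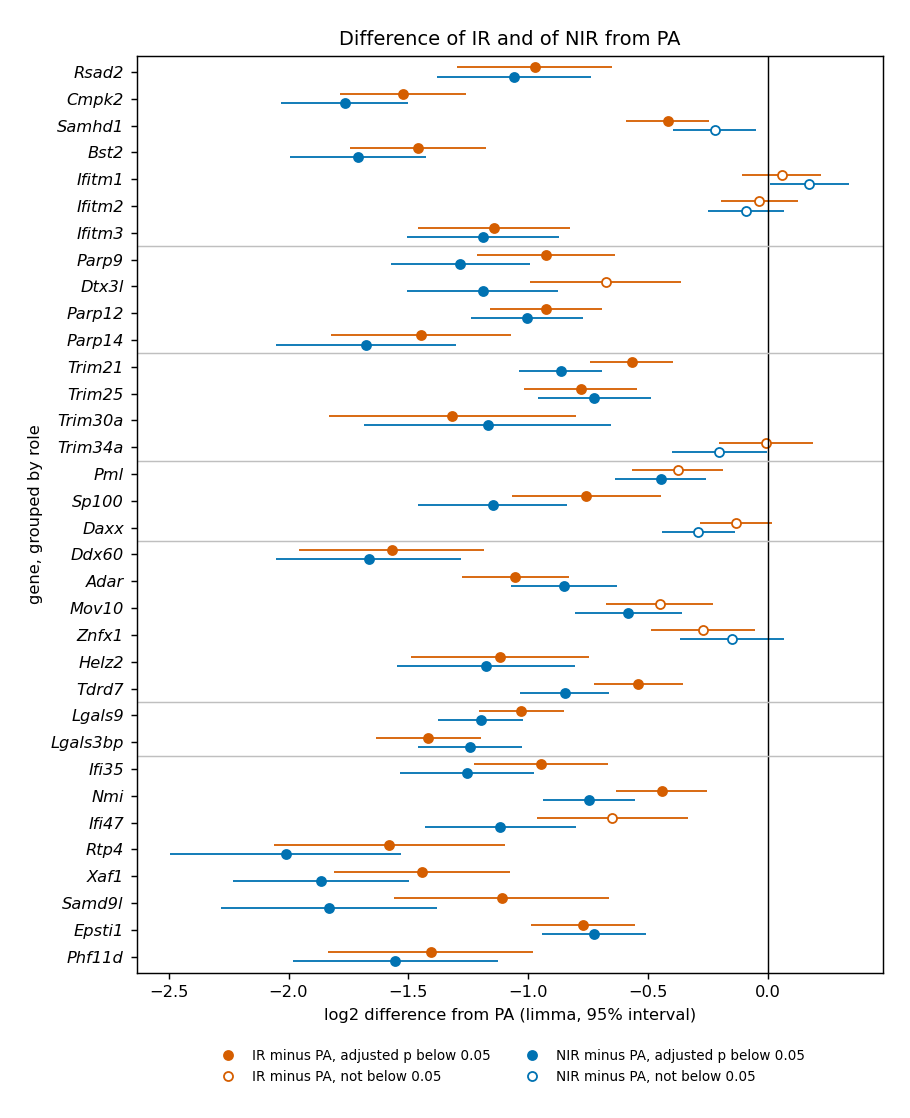
Points are limma log2 differences from PA with 95% intervals, orange for IR and blue for NIR, filled where the adjusted p is below 0.05. Differences run from -2.01 (Rtp4 in NIR) to 0.17 (Ifitm1 in NIR), and no filled point lies above 0.

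The first role is that of enzymes and membrane proteins that restrict viruses directly. Of its 7 genes, 5 fell in IR and 4 in NIR. Bst2 (Entrez Gene 69550) encodes tetherin, which ties budding virus particles to the cell surface. It read 11.09, 11.13 and 11.04 in PA1 to PA3, 9.25, 9.12 and 9.75 in NIR1 to NIR3, and 9.66, 9.64 and 9.58 in IR1 to IR3. All derived arrays thus lay more than a log2 unit below all PA arrays. The fold was 2.75 lower in IR (log2 difference -1.46, SE 0.13, limma adjusted p = 0.000184) and 3.27 lower in NIR (-1.71, SE 0.13, limma adjusted p = 7.24e-05).

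Cmpk2, a mitochondrial nucleotide kinase, and its chromosomal neighbour Rsad2, which encodes viperin, supply and convert nucleotides into a chain terminator of viral RNA synthesis. Cmpk2 (Entrez Gene 22169) read 7.45, 7.56 and 7.31 in PA, 5.40, 5.67 and 5.96 in NIR, and 5.96, 5.88 and 5.93 in IR. The groups did not overlap with PA, and Cmpk2 was 2.87-fold lower in IR (log2 difference -1.52, SE 0.12, limma adjusted p = 7.84e-05) and 3.40-fold lower in NIR (-1.77, limma adjusted p = 3.86e-05). Its second, dimmer probe set fell in NIR (-1.23, limma adjusted p = 0.024) but did not pass in IR (-0.97, adjusted p = 0.0964). Rsad2 fell by less, with log2 differences of -0.97 in IR and -1.06 in NIR (limma adjusted p = 0.00634 and 0.00297), and both of its other probe sets fell as well. Samhd1, a hydrolase of deoxynucleotides, had a log2 difference of -0.42 in IR (limma adjusted p = 0.0278) and -0.22 in NIR (adjusted p = 0.271). That single call was lost without IR2, IR3, PA1 or PA2, reaching a limma adjusted p of 0.165 without PA1, and none of the gene's other 4 probe sets passed in IR.

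The interferon-induced transmembrane proteins, which stop viruses from fusing with endosomal membranes, did not move together. Ifitm3 (Entrez Gene 66141) read 12.39, 12.45 and 12.43 in PA, 10.88, 11.35 and 11.47 in NIR, and 11.39, 11.42 and 11.02 in IR. Its neighbour Ifitm2 (Entrez Gene 80876) read 11.58, 11.52 and 11.57 in PA, 11.34, 11.51 and 11.55 in NIR, and 11.53, 11.49 and 11.55 in IR. Ifitm3 was thus lower on every derived array, whereas the Ifitm2 arrays of the 3 groups overlapped. For Ifitm3 the log2 difference was -1.14 in IR (SE 0.145, limma adjusted p = 0.00175) and -1.19 in NIR (limma adjusted p = 0.00108). For Ifitm2 it was -0.034 in IR, with a 95% interval from -0.19 to 0.13, and -0.09 in NIR, with an interval from -0.25 to 0.069. Taken within each array, Ifitm3 minus Ifitm2 differed from PA by -1.11 in IR and by -1.10 in NIR. Each had p = 0.1 (exact permutation test, two-sided), the smallest that 3 against 3 arrays allow. The pair was singled out after its values were seen, so this p cannot decide whether the contrast is real, and only its size is given. Ifitm1, the remaining gene of this family on the list, read between 3.61 and 3.93 on all arrays, below the median probe set, so a change in it would hardly be visible.

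Because most members moved together, their promoters were searched for the core letters of the interferon-stimulated response element, GAAANNGAAA, or TTTCNNTTTC on the other strand. RefSeq windows on GRCm38.p6, from 250 bases before to 50 after the gene start, existed for 31 of the 34 members. The letters were present in 10 of these 31, or 32.3%, against 3.99% of all 27025 genes with a window. They were found for 8 of the 21 members with a window that fell in both groups and for 2 of the other 10. A match is a description of letters, with no statement on binding, and other forms of the element were not searched. The windows below, from 150 bases before to 30 after the start, are those of the contrasting pair Ifitm2 and Ifitm3 and of 4 further members that fell and hold the letters before the start, with the matches in capitals.
Ifitm2, chr7:140955932-140956111, minus strand: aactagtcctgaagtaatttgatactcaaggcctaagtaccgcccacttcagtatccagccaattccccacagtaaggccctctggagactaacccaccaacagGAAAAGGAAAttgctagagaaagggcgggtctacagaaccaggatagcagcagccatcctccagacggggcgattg
Ifitm3, chr7:141010715-141010894, minus strand: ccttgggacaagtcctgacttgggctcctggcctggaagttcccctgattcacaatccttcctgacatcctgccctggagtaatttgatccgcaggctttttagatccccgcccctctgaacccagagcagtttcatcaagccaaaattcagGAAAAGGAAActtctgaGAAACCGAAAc
Bst2, chr8:71537443-71537622, minus strand: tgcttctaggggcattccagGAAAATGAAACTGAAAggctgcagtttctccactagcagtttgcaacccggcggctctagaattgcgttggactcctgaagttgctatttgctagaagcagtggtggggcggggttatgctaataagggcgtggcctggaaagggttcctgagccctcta
Rsad2, chr12:26456423-26456602, minus strand: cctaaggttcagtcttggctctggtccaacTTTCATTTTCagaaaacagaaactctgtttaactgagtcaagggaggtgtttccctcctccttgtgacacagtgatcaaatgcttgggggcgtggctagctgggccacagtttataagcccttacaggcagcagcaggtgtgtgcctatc
Lgals9, chr11:78984895-78985074, minus strand: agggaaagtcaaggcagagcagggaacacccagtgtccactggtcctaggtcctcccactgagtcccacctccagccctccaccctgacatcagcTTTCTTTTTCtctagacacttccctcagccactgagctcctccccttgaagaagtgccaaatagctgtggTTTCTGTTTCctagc
Ddx60, chr8:61927937-61928116, plus strand: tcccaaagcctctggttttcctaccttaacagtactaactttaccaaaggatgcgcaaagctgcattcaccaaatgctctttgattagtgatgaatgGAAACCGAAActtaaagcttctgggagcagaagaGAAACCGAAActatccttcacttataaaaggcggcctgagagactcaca
Ifitm2 holds 1 match, which starts at position -46 from the gene start, and Ifitm3 holds 2, both just after it, at positions 3 and 20. In Bst2 the 2 matches overlap. Ddx60 has 2 matches before the start, and the matches of Lgals9 and Rsad2 are on the other strand. Having the letters did not separate the pair: Ifitm2, which did not pass, holds them as Ifitm3 does.

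**Figure D3:**
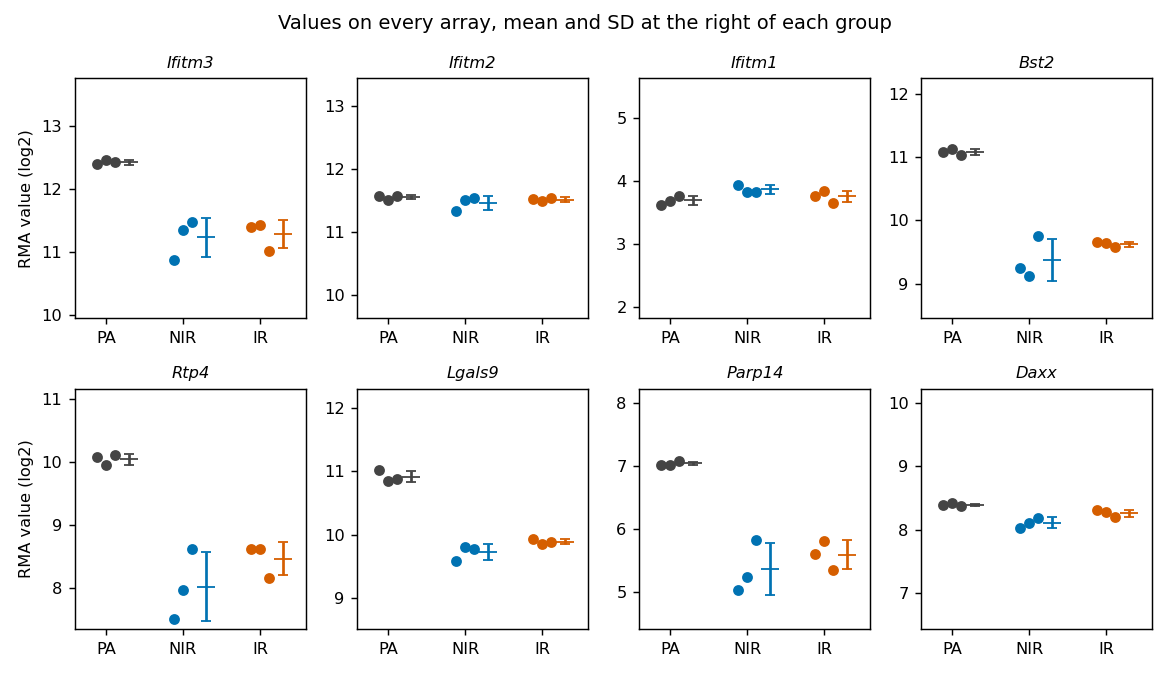
Log2 RMA values on each array for 8 members, with the group mean and SD (n = 3) at the right of each group and the same span on every vertical axis. Ifitm3, Bst2, Rtp4, Lgals9 and Parp14 sit lower in NIR and IR than in PA, whereas Ifitm2, Ifitm1 and Daxx differ little or not at all on the same span.

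The second role is ADP-ribosylation. PARP9 works as a pair with the ubiquitin ligase DTX3L, whose gene lies next to it, and PARP12 and PARP14 attach single ADP-ribose units to proteins. All 4 genes fell in NIR, and 3 of 4 in IR. Parp14 (Entrez Gene 547253) read 7.02, 7.02 and 7.07 in PA, 5.03, 5.24 and 5.82 in NIR, and 5.61, 5.81 and 5.35 in IR. It was the member of this role with the widest gap, 2.73-fold lower in IR (log2 difference -1.45, SE 0.171, limma adjusted p = 0.00105) and 3.19-fold lower in NIR (-1.68, limma adjusted p = 0.000313). A second, dim probe set of Parp14 (mean 3.72) gave -0.071 and -0.057 and did not pass.

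Parp9 (Entrez Gene 80285) read 8.93, 8.91 and 8.93 in PA, 7.27, 7.71 and 7.94 in NIR, and 8.05, 7.98 and 7.96 in IR. Its partner gene Dtx3l read 8.03, 7.88 and 7.98 in PA, 6.49, 6.62 and 7.20 in NIR, and 7.30, 7.25 and 7.30 in IR. Neither overlapped with PA, and in both all NIR arrays lay below the lowest IR array. Parp9 fell by 0.92 on the log2 scale in IR and by 1.28 in NIR (limma adjusted p = 0.00424 and 0.000331). Dtx3l fell in NIR (-1.19, limma adjusted p = 0.00106), and in IR had -0.68, just short of the threshold (limma adjusted p = 0.0525). That value passed without NIR1 (0.0281) or NIR3 (0.000904), and the gene's other probe set passed in IR (-0.65, limma adjusted p = 0.0218). Parp12 fell in both, with -0.93 and -1.0 (limma adjusted p = 0.000937 and 0.000381).

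TRIM proteins are ubiquitin ligases: TRIM21 is a cytosolic antibody receptor, TRIM25 activates the RNA sensor RIG-I, and mouse TRIM30A dampens Toll-like receptor signalling. Of 4 genes, 3 fell in IR and the same 3 in NIR. Trim30a (Entrez Gene 20128) read 8.74, 8.82 and 9.16 in PA, 7.38, 7.68 and 8.15 in NIR, and 7.90, 7.85 and 7.02 in IR. IR3 stood lowest of all 9 arrays. The log2 difference was -1.32 in IR (SE 0.235, limma adjusted p = 0.0202) and -1.17 in NIR (limma adjusted p = 0.0355). With 1 array fewer the difference stayed negative but did not always pass. For IR, Trim30a gave -1.40, -1.36 and -1.19 without PA1, PA2 and PA3 (limma adjusted p = 0.0654, 0.0901 and 0.12), and passed without IR3 (-1.03, limma adjusted p = 0.0308). For NIR, it did not pass without NIR1, without NIR2 or without any 1 of the PA arrays, where it lay between -1.25 and -0.99 (limma adjusted p up to 0.165, without PA3). Its second probe set fell in both (-1.46 and -1.41, limma adjusted p = 0.00158 and 0.00164). Both probe sets can bind several transcripts, which may all be of Trim30a. Trim30a also has close relatives in the genome, and binding to their transcripts was not tested.

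Trim21 (Entrez Gene 20821) read 6.97, 7.21 and 7.09 in PA, 6.15, 6.22 and 6.32 in NIR, and 6.52, 6.55 and 6.50 in IR. Here the 3 groups were fully apart, with IR between the other two. Its log2 differences were -0.57 in IR and -0.86 in NIR (limma adjusted p = 0.00348 and 0.000172), and 0.30 between IR and NIR, which did not pass (limma adjusted p = 0.0865). A second probe set of Trim21, nearly as bright (mean 6.46), fell in NIR (-0.56, limma adjusted p = 0.0153) but did not pass in IR (-0.41, limma adjusted p = 0.088). Trim25 (Entrez Gene 217069) read 9.46, 9.65 and 9.91 in PA, 8.84, 8.94 and 9.07 in NIR, and 8.94, 8.83 and 8.91 in IR. It fell in both, by 0.78 in IR and 0.72 in NIR on the log2 scale (limma adjusted p = 0.00342 and 0.0053), and its 2 other probe sets fell in both comparisons too. Trim34a, at 3.45 to 3.92 on all arrays, was near background and passed in no comparison.

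PML, SP100 and DAXX meet in PML nuclear bodies, where PML is the scaffold and DAXX a histone chaperone. Of these 3 genes, 1 fell in IR and 2 in NIR. Sp100 (Entrez Gene 20684) read 6.39, 5.98 and 5.70 in PA, 4.83, 4.79 and 5.00 in NIR, and 5.16, 5.28 and 5.35 in IR. PA spread widely but stayed above all derived arrays, and Sp100 had log2 differences of -1.15 in NIR (limma adjusted p = 0.0012) and -0.76 in IR (limma adjusted p = 0.0262). The call in IR was lost without IR1, IR2, IR3, PA1 or PA2, reaching a limma adjusted p of 0.13 without IR1. The other probe set of Sp100 did not pass (-0.44 in NIR and -0.21 in IR).

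Pml (Entrez Gene 18854) read 7.19, 7.46 and 7.29 in PA, 6.76, 6.93 and 6.92 in NIR, and 6.99, 6.84 and 6.98 in IR. It fell in NIR (-0.45, limma adjusted p = 0.0295) and did not pass in IR (-0.38, limma adjusted p = 0.0808). The NIR call was lost without IR1, NIR1, NIR2, NIR3, PA2 or PA3 (limma adjusted p up to 0.131, without PA2). Daxx (Entrez Gene 13163) read 8.39, 8.42 and 8.38 in PA, 8.02, 8.11 and 8.19 in NIR, and 8.31, 8.28 and 8.20 in IR. All derived arrays lay below PA by a small margin, with -0.13 in IR (95% interval -0.28 to 0.02) and -0.29 in NIR (-0.44 to -0.14), and neither passed (limma adjusted p = 0.665 and 0.0781).

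The next 6 genes act on RNA: DDX60, MOV10, ZNFX1 and HELZ2 are helicases or helicase-like, ADAR converts adenosine to inosine in double-stranded RNA, and TDRD7 is a Tudor protein of RNA granules. In IR 4 of these fell, and in NIR 5. Ddx60 (Entrez Gene 234311) read 5.48, 5.46 and 5.02 in PA, 3.44, 3.40 and 4.12 in NIR, and 3.82, 3.71 and 3.71 in IR. Every derived array lay below the median probe set, near background, so the size of the fall is uncertain (log2 difference -1.57 in IR and -1.67 in NIR, limma adjusted p = 0.000843 and 0.000363). Helz2 (Entrez Gene 229003) read 7.09, 7.13 and 6.92 in PA, 5.80, 5.49 and 6.32 in NIR, and 5.72, 6.04 and 6.02 in IR. It was 2.17-fold lower in IR and 2.26-fold lower in NIR (limma adjusted p = 0.00665 and 0.00408), and the IR call was lost without PA2 (0.053).

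Adar (Entrez Gene 56417) read 8.01, 8.0 and 8.09 in PA, 7.0, 7.27 and 7.29 in NIR, and 7.11, 7.05 and 6.79 in IR. All derived arrays were lower, by 1.05 on the log2 scale in IR (SE 0.101, limma adjusted p = 0.000317) and 0.85 in NIR (limma adjusted p = 0.000959). Adar's probe sets disagreed in size. The one read here can bind several transcripts. Another of similar brightness (mean 7.12), not of that kind, gave -0.40 and -0.11 and did not pass. Tdrd7 fell in both, with -0.54 and -0.85 (limma adjusted p = 0.00884 and 0.000288). Its IR call was lost without IR2, PA1 or PA3 (limma adjusted p up to 0.0594, without PA1). Mov10 fell in NIR (-0.58, limma adjusted p = 0.0161), a call lost without NIR1, without NIR3 or without any 1 of the PA arrays (up to 0.0863, without PA1), and had -0.45 in IR (limma adjusted p = 0.073), which passed without NIR1 (0.0409) or NIR2 (0.0251). Znfx1 had -0.27 and -0.15 and passed in neither (limma adjusted p = 0.421 and 0.61).

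Galectin-9, a sugar-binding protein that can be secreted, and the secreted glycoprotein that binds galectins both fell in IR and in NIR. Lgals9 (Entrez Gene 16859) read 11.02, 10.85 and 10.88 in PA, 9.58, 9.81 and 9.77 in NIR, and 9.93, 9.85 and 9.88 in IR. It was 2.04-fold lower in IR (log2 difference -1.03, SE 0.081, limma adjusted p = 7.84e-05) and 2.29-fold lower in NIR (-1.20, limma adjusted p = 3.86e-05). Lgals3bp (Entrez Gene 19039) read 10.35, 10.15 and 10.31 in PA, 8.80, 9.18 and 9.11 in NIR, and 8.88, 8.87 and 8.82 in IR. Its fall was 2.67-fold in IR (log2 difference -1.42, SE 0.0993, limma adjusted p = 5.83e-05) and 2.37-fold in NIR (-1.24, limma adjusted p = 8.07e-05). In both genes the PA arrays stood clear of all 6 derived arrays.

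The last 8 genes encode interferon-induced proteins of other kinds, and all 8 fell in NIR and 7 in IR. Rtp4 (Entrez Gene 67775), a chaperone that carries G protein-coupled receptors to the cell surface, read 10.07, 9.94 and 10.10 in PA, 7.51, 7.96 and 8.61 in NIR, and 8.61, 8.61 and 8.15 in IR. It had the largest difference of all members, 4.03-fold lower in NIR (log2 difference -2.01, SE 0.22, limma adjusted p = 0.000466) and 2.99-fold lower in IR (-1.58, limma adjusted p = 0.00348). NIR1 stood lowest, and NIR3 matched IR1 and IR2. Xaf1 (Entrez Gene 327959), which binds the apoptosis inhibitor XIAP, read 10.56, 10.34 and 10.40 in PA, 8.13, 8.55 and 9.02 in NIR, and 9.01, 9.02 and 8.93 in IR. Its fold was 3.64 lower in NIR and 2.72 lower in IR (limma adjusted p = 0.00016 and 0.000965).

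Samd9l (Entrez Gene 209086), a cytosolic protein that restrains growth and poxviruses, read 8.45, 8.34 and 8.43 in PA, 5.95, 6.77 and 7.0 in NIR, and 7.43, 7.31 and 7.14 in IR. All NIR arrays lay below all IR arrays, and these below PA. Its log2 difference was -1.83 in NIR (limma adjusted p = 0.000588) and -1.11 in IR (limma adjusted p = 0.0244). The IR call was lost whichever IR or PA array was left out (limma adjusted p up to 0.13, without PA1). Of the rest, Phf11d, a PHD finger gene with close relatives, had -1.56 in NIR and -1.41 in IR (limma adjusted p = 0.00141 and 0.00348). Ifi35 and its binding partner Nmi fell in NIR by 1.26 and 0.75 on the log2 scale, and in IR by 0.95 and 0.44 (limma adjusted p = 0.0028 and 0.0354). Nmi lost its IR call without any 1 of the IR arrays, without PA1 and without PA2, reaching a limma adjusted p of 0.194 without PA2. Epsti1 fell in both (-0.72 in NIR and -0.77 in IR, limma adjusted p = 0.00284 and 0.00211). Ifi47, a GTPase of the immunity-related family, fell in NIR (-1.12, limma adjusted p = 0.00166) and had -0.65 in IR (adjusted p = 0.0642), which passed without NIR1 (0.0454).

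Between IR and NIR, none of the 34 effectors passed (limma, 0 called, where 1.65% of all genes were called in either direction, 0.786% higher and 0.863% lower in IR). At an unadjusted p under 0.05 the count was 12 of 34, against 15.9% of all genes. The sign leaned to IR: 26 members were higher in IR, with a median log2 difference of 0.15 against 0.001 over all genes, and IR lay wholly above NIR for 9 members (8.69% of all genes) and wholly below for 1, Samhd1 (9.4%). The lean depended on single NIR arrays: the median was 0.078 without NIR1, with 12 members lower in IR in place of 8, and 0.24 without NIR3. The largest differences were those of Samd9l, 0.72 (95% interval 0.27 to 1.17, limma adjusted p = 0.103), Dtx3l, 0.51 (0.20 to 0.83, adjusted p = 0.0985), and Ifi47, 0.47 (0.15 to 0.78, adjusted p = 0.128). Adar was at the other end, with -0.20 (-0.43 to 0.018, adjusted p = 0.361).

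NIR was the group in which the effectors varied most among its own arrays. The median SD of the members was 0.22 in NIR, against 0.10 for all genes there, but 0.083 in IR and 0.075 in PA, near the 0.088 and 0.084 of all genes. NIR1 was the lowest NIR array for 25 of 34 members (35.5% of all genes) and NIR3 the highest for 25 (28% of all genes). For 19 members both held, beside 12.9% of all genes. The median difference from PA was -1.27 in NIR1, -1.08 in NIR2 and -0.82 in NIR3, so NIR3 lay at the level of IR1 (-0.86), IR2 (-0.90) and IR3 (-0.98). IR3 was the lowest IR array for 18 of 34 members, where 40% of all genes had it lowest, and its macrophage list mean was the highest, at 5.31. Whether the macrophage signal has a part in this order was not tested. Without NIR3, 5 members were called higher in IR than in NIR: Samd9l (0.94), Dtx3l (0.73), Xaf1 (0.65), Ifi35 (0.48) and Bst2 (0.44), with limma adjusted p from 0.0055 to 0.0427. Without IR3, 1 was called, Ifi47 (0.64, limma adjusted p = 0.0373). The share of all genes called was 1.49% without NIR3, and it was smaller without IR3. A count of 1 member is too low to set against that share.

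**Figure D4:**
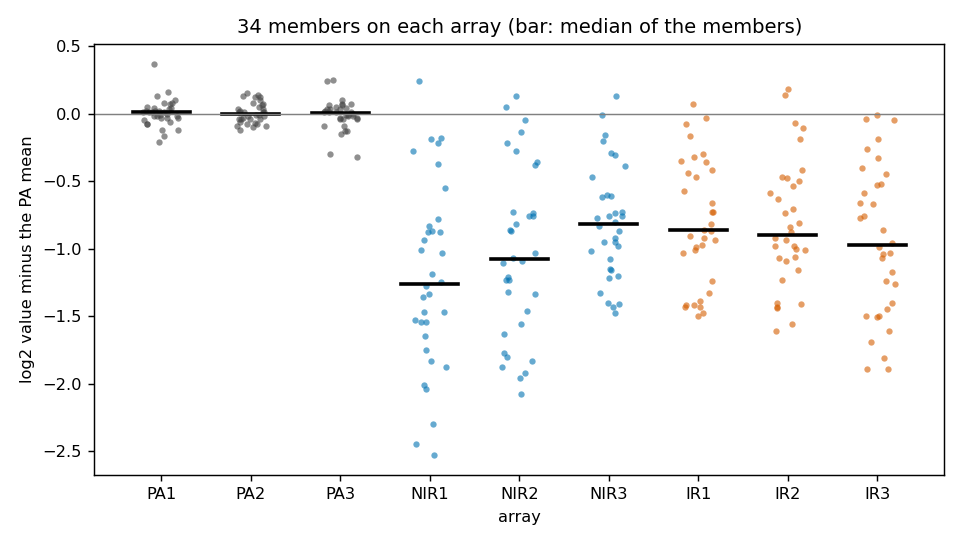
Each point is 1 of the 34 members on 1 array, as its log2 value minus its PA mean, and black bars are the medians over members. The medians lie between -0.82 and -1.27 on the 6 derived arrays, lowest on NIR1, and near 0 on the PA arrays.

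The rest of the pathway was read from lists of its other parts. Interferon ligands (4 measured, Ifnb1, Ifna4, Ifna2 and Ifng) had means of 3.48 to 4.51, and none passed against PA. Ifna4 lay just above the median probe set and the others below it. Of 7 receptor chains and Janus kinases none passed in either comparison, with log2 differences from -0.26 (Jak2 in NIR) to 0.32 (Ifngr1 in IR). Of 7 transcription factors 3 fell in IR and 3 in NIR: Irf7 (-2.57 and -2.54), Irf9 (-1.0 and -1.25) and Stat2 (-0.94 and -1.01), whose product acts with IRF9 at the response element. Irf1, Irf2, Irf3 and Irf8 did not pass. Of 5 negative regulators, Usp18, which removes ISG15 from proteins and blocks the receptor, fell in both (-2.40 and -2.65) and Pias1 in NIR (-0.37). Among 20 other targets 16 fell in IR and 15 in NIR, with the largest falls in Oasl2 (-2.40 and -2.68) and Ifit1 (-1.94 and -2.14), followed in IR by Oas1a (-1.86) and in NIR by Zbp1 (-1.98). In IR against NIR none of the genes on these lists passed.

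Of the 34 members, 19 had more than 1 probe set. Their other probe sets numbered 29, fitted together with all single-gene probe sets, of which 9 were called lower in IR and 11 in NIR, and none was called higher. All of these calls were among the 17 whose mean lay above the median probe set, and 0 of the 12 dimmer ones was called. Besides those of Adar, Samhd1, Trim21 and Cmpk2 given above, Mov10 had a second probe set above the median (mean 5.58) that did not pass, at 0.13 in IR and 0.061 in NIR, and Epsti1 had another (mean 5.23), at 0.026 and 0.14.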

How the data were processed

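RNA of 9 SCCVII samples was hybridised to Affymetrix arrays, 1 label and 1 array per sample. The deposited values are log2 expression values per probe set, made by the authors with RMA per the submitters' processing notes, with background and scaling settings not given in the sources used here. Of 45100 probe sets, 34944 were annotated to 1 gene, 932 to several and 64 were controls; symbols were updated through Entrez Gene numbers for 34740. The brightest single-gene probe set, by its mean over the 9 arrays, stood for each of 18194 genes. Of the members' chosen probe sets, 10 can bind several transcripts, which may be transcripts of the same gene. limma 3.58.1 in R 4.3.3 fitted 1 mean per group over all 9 arrays, with eBayes and Benjamini-Hochberg adjustment over all genes, and a gene passed at an adjusted p below 0.05. No filter on low values was set. The number of arrays limits the precision. The fit was checked on simulated data with the same spread in all groups, so the check does not cover the members' wider spread in NIR.

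The members and lists were chosen with earlier results of these data known. Every measured member is named; values per array are given for up to 3 genes of a role with the largest difference, and for genes that the results turn on. The contrast of Ifitm2 with Ifitm3, and the probe sets named at the end, were singled out after their values were seen. Alternatives were a filter on dim genes, another rule for probe sets, other scalings and fits, a fold threshold and leaving out each array. Replicate numbers showed no pairing of the samples over all genes. Promoters came from RefSeq on GRCm38.p6.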

Additional observations from a re-analysis of the deposited data

How the results depend on the processing

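Counts of members called lower were 25 (IR against PA), 28 (NIR against PA) and 0 in either direction (IR against NIR). Of all genes, 1.06%, 1.3% and 1.65% were called in either direction, and this share moved with the setting. Leaving out 1 array gave 19 to 28, 25 to 28 and 0 to 5. The fewest in IR came without PA1 or PA2 (0.544% of all genes called), and the 5 without NIR3 (1.49%). Of the calls, 18 of 25 and 25 of 28 held whichever array was left out. With a fall of at least 2-fold also required, 14 and 20 remained (0.28% and 0.363% of all genes). Array weights gave 29, 28 and 1 (Ifi47, higher in IR). That setting also called a larger share of all genes in every comparison than the fit without weights. With probe sets that can bind several transcripts left out, 17 and 20 of 28 genes were called, at smaller shares of all genes.

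Over all genes, deviations of same-numbered arrays from their group means correlated with r from -0.20 to 0.097 (9 pairs). For other pairs r was -0.12 to 0.25 (18 pairs). No pairing by number thus showed over all genes, and one that touches only some genes was not tested. With the replicate number as a block the counts were 21, 26 and 0 (0.901%, 1.12% and 1.26% of all genes called), and the causes were not tested. Calls for single genes rested on the probe set, and Adar was lost in both with its second one. Some other probe sets had the opposite sign, and none of these passed. In IR they gave 0.09 and 0.029 for Samhd1, 0.12 for Tdrd7, 0.026 for Epsti1, 0.13 for Mov10 and 0.053 for Pml. In NIR they gave 0.12 for Tdrd7, 0.14 and 0.036 for Epsti1, 0.054 for Pml, 0.061 for Mov10 and 0.016 for Xaf1. For Samhd1 in NIR they gave 0.101 and 0.151. Ifitm1, Trim34a and Ddx60 had means below the median probe set, where a change is hard to see.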
